A study of Mus musculus with 30 samples.

Results

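Oxidative phosphorylation is run by protein complexes in the inner mitochondrial membrane, and the genes described here are the nuclear genes of complexes I, III, IV and V as found by symbol. They were the protein-coding genes listed in the deposited expression tables whose symbol begins with Ndufa, Ndufb, Ndufc, Ndufs, Ndufv, Uqcr, Cox4, Cox5, Cox6, Cox7, Cox8 or Atp5. The rule itself used no measured value, but it was set with earlier results of these data known. There were 88 such genes among 20842 tested. Complex I was represented by 43 genes (7 core subunits, 29 accessory subunits and 7 assembly factors), complex III by 8, complex IV by 20 and complex V by 15. The other two, Atp5s and Atp5sl, carry the prefix without being subunits of the ATP synthase.

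Complexes I, III and IV pass electrons from NADH to oxygen and pump protons out of the mitochondrial matrix, and complex V, the ATP synthase, uses the returning protons to make ATP. Most subunits are encoded in the nucleus and imported, while a few, including the proton-pumping core of complex I and the catalytic core of complex IV, are encoded in mitochondrial DNA. The heart is rich in mitochondria, and in complex IV several small subunits exist as a form made in most tissues and another made mainly in heart and skeletal muscle.

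The embryos were mice of embryonic day 9.5, staged at 19 to 21 somite pairs, and their RNA was measured on 16 mRNA arrays, 4 per group. The groups were OFT-RV (outflow tract with right ventricle) of mutants, OFT-RV of wild-type embryos, aSHF of mutants, and aSHF of wild-type embryos. Here aSHF is the dissected region of the anterior second heart field, whose progenitors lie behind the heart tube. Mutants were Mef2c-AHF-Cre/+; Dgcr8 f/f, in which the Mef2c-AHF driver gives Cre to the anterior second heart field and to cells derived from it, and cells of other origin in the dissected tissue are not targeted. Embryos called wild-type were Dgcr8 f/+ and carried no Cre. Each array held RNA of a pool of embryos of one genotype from at least 5 litters, and the arrays of a group are labelled as biological replicates. Values are log2 intensities that the authors normalized within each tissue. They can be set against the other tissue only as ranks among all genes of the same array, given here in percent (100 is the brightest gene).

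Dgcr8, the targeted gene, encodes the protein that binds primary miRNAs for cleavage by Drosha. Its log2 values were 7.63, 7.77, 7.73 and 7.65 in OFT-RV mutants and 8.22, 8.06, 7.98 and 8.16 in OFT-RV wild-type pools, which do not overlap (change -0.41, SE 0.06, adjusted p = 0.00753 by limma). In aSHF they were 10.18, 10.27, 10.17 and 10.25 in mutants and 10.27, 10.36, 10.33 and 10.41 in wild-type pools, with a change of -0.12 (SE 0.05, adjusted p = 0.978). The position of its probes against the floxed stretch was not analysed here. Of the cardiomyocyte markers, 18 of 18 were among the top 10% of genes in OFT-RV of both genotypes, with a median rank of 99.1% in mutants and 99.1% in wild-type pools. In aSHF their median rank was 56.1% in mutants and 57.1% in wild-type pools. The 10 second heart field markers had medians of 78.1% in aSHF mutants and 78.4% in aSHF wild-type pools. Their medians were 50.2% and 49.8% in OFT-RV mutants and wild-type pools. Wnt11 and Fgf10 of that list went the other way. In wild-type pools Wnt11 had mean ranks of 65.9% in OFT-RV and 46.6% in aSHF, and Fgf10 66.0% and 63.8%.

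In OFT-RV, none of the 88 genes passed the test between mutant and wild-type pools (limma, adjusted p under 0.05 over 20842 genes), where 0.446% of all genes did, 0.432% of them as higher and 0.0144% as lower. The median change was -0.0032 on the log2 scale, against -0.011 over all genes, and 43 of the 88 changes were above 0. The 95% interval of the change lay within 0.5 of 0 for 88 of 88 genes, with outer bounds of -0.43 and 0.29. Unadjusted p was under 0.05 for 4 genes that were lower in mutants (4.55%, against 3.2% of all genes) and for 0 that were higher (against 2.64% of all genes).

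The smallest p in OFT-RV was that of Cox8b, the heart and muscle form of complex IV subunit 8. Cox8b had log2 values of 6.12, 6.20, 6.02 and 6.24 in OFT-RV mutants and 6.27, 6.46, 6.25 and 6.62 in OFT-RV wild-type pools. Every mutant value was below every wild-type value, and the highest mutant array nearly met the lowest wild-type arrays. Its change was -0.25 (SE 0.08, adjusted p = 0.523 by limma), and its rank was near the middle of the array, at 44.5% ± 1.6 in mutants and 48.1% ± 2.6 in wild-type pools (SD, n = 4 each).

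Cox6a2, the heart and muscle form of subunit 6a, had values of 9.10, 9.17, 9.13 and 8.99 in OFT-RV mutants and 9.14, 9.36, 9.21 and 9.28 in OFT-RV wild-type pools. The groups overlapped, and the change was -0.15 (SE 0.06, adjusted p = 0.754). Cox7a1, the heart and muscle form of subunit 7a, had 11.19, 10.96, 11.07 and 11.04 in OFT-RV mutants and 10.97, 11.21, 11.04 and 11.16 in OFT-RV wild-type pools, with overlapping groups and a change of -0.04 (SE 0.07, adjusted p = 0.985).

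Both remaining genes with an unadjusted p under 0.05 encode factors that help to build complex I and are not part of it. Ndufaf3 had 7.21, 7.31, 7.30 and 7.10 in OFT-RV mutants and 7.33, 7.36, 7.36 and 7.45 in OFT-RV wild-type pools (change -0.15, SE 0.06, adjusted p = 0.726). Ndufaf2 had 9.20, 9.19, 9.16 and 9.15 in OFT-RV mutants and 9.37, 9.30, 9.26 and 9.22 in OFT-RV wild-type pools (change -0.11, SE 0.05, adjusted p = 0.773). Neither gene's groups overlapped, and with Cox8b these made 3 genes with separate groups, 3.41% of the 88, against 3.59% of all genes separate in either direction and 1.78% separate as lower.

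On the higher side in OFT-RV mutants the 4 genes with the smallest p were Ndufaf5, Ndufaf6, Cox4i2 and Atp5l, and none was past an unadjusted p of 0.05. Ndufaf5 and Ndufaf6, both complex I assembly factors, differed by 0.13 (SE 0.07) and 0.08 (SE 0.05). Cox4i2, the form of subunit 4 known from lung and other oxygen-sensing tissue, differed by 0.11 (SE 0.07), and Atp5l, subunit g of the ATP synthase, by 0.07 (SE 0.05). The 7 assembly factors of complex I thus held the extremes of that complex in both directions, with 3 changes above 0 and 4 below.

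Genes of the catalytic parts of the complexes did not pass either. Of the 7 core subunits of complex I, some of which carry the flavin or iron-sulfur clusters, 0 passed. The changes of these core subunits in OFT-RV ran from -0.02 (Ndufv2) to 0.04 (Ndufs7), with intervals between -0.11 and 0.17. Uqcrfs1, the Rieske iron-sulfur protein of complex III, had values of 11.64, 11.62, 11.65 and 11.63 in OFT-RV mutants and 11.57, 11.65, 11.67 and 11.68 in OFT-RV wild-type pools. The groups overlapped, with a change of -0.01 (SE 0.04). Atp5b, the catalytic beta subunit of the ATP synthase, averaged 12.97 ± 0.03 in mutants and 12.998 ± 0.05 in wild-type pools (SD, n = 4 each), a change of -0.02 (SE 0.05).

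**Figure D1:**
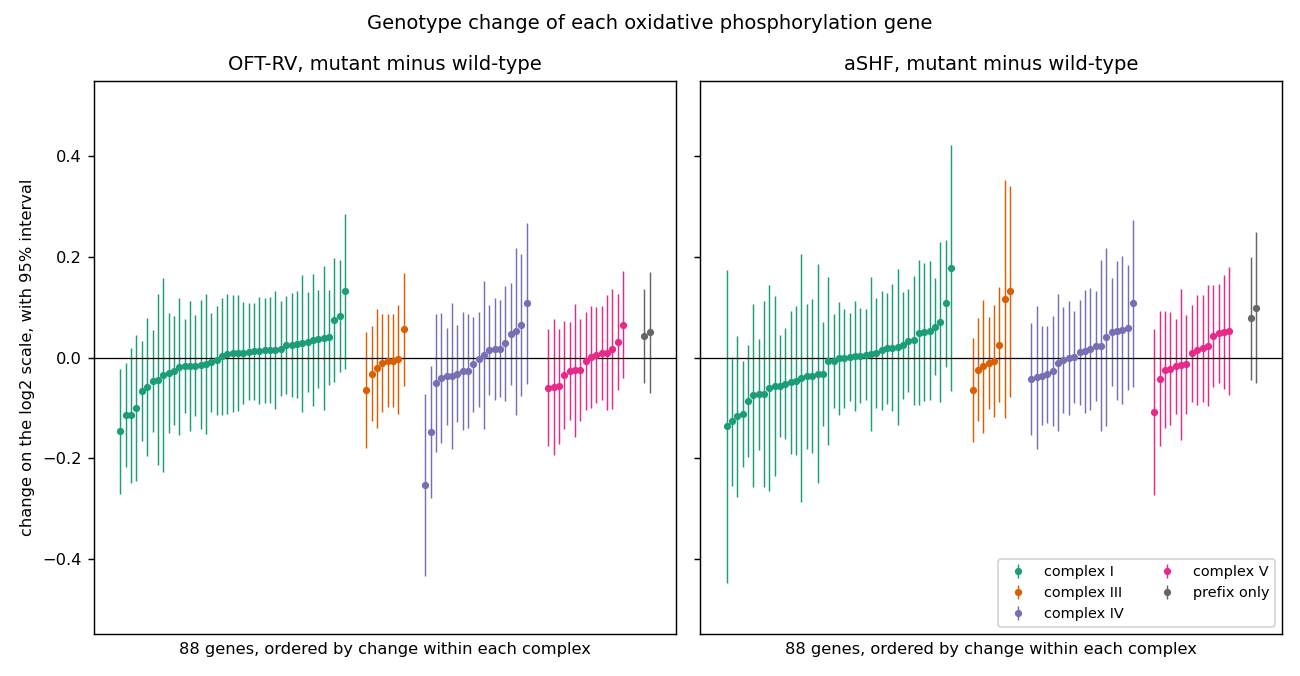
Change of each of the 88 genes between mutant and wild-type pools on the log2 scale, in OFT-RV (left) and aSHF (right), each point with its 95% interval from limma (4 arrays per group) and coloured by complex. The lowest point in OFT-RV is Cox8b at -0.25, and the intervals of the 88 genes lie between -0.45 and 0.42 over both tissues.

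In aSHF, likewise, 0 of the 88 genes passed, where 0.178% of all genes did. The median change was 0.0014, against 0.012 over all genes, 45 of 88 changes were above 0, and the 95% intervals lay between -0.45 and 0.42. Unadjusted p was under 0.05 for 1 gene that was lower in mutants (1.14% of both the members and all genes) and for 0 that were higher (against 1.52% of all genes). In 0 of the 88 genes were the mutant and wild-type arrays separate, against 1.62% of all genes.

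That gene was Ndufb5, an accessory subunit in the membrane arm of complex I. It had log2 values of 10.44, 10.35, 10.37 and 10.50 in aSHF mutants and 10.57, 10.47, 10.54 and 10.52 in aSHF wild-type pools. One mutant array lay above the lowest wild-type array, and the change was -0.11 (SE 0.05, adjusted p = 0.978). Ndufs1, the largest core subunit of complex I, had 9.77, 9.64, 9.67 and 9.56 in aSHF mutants and 9.76, 9.71, 9.77 and 9.90 in aSHF wild-type pools (change -0.13, SE 0.06). The accessory subunit Ndufs4 and the assembly factor Ndufaf1 differed by -0.09 (SE 0.05) and -0.12 (SE 0.07).

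The 4 genes with the smallest p on the higher side in aSHF mutants were Ndufa11, Ndufa13, Atp5sl and Cox6a2. Ndufa11, an accessory subunit of complex I, differed by 0.11 (SE 0.06). Ndufa13, another accessory subunit, also known as GRIM-19, had 8.13, 7.92, 7.84 and 8.34 in aSHF mutants and 7.94, 7.98, 7.95 and 7.65 in aSHF wild-type pools. Its mutant arrays spread on both sides of most wild-type arrays, and the change was 0.18 (SE 0.11). Atp5sl differed by 0.10 (SE 0.07), and Cox6a2 by 0.11 (SE 0.07), the opposite sign to OFT-RV.

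The genotype change in OFT-RV minus that in aSHF passed for 0 of the 88 genes, where 0.211% of all genes passed (limma fit of the 4 groups), 0.202% with a positive and 0.0096% with a negative difference. Before adjustment, p was under 0.05 for 0 genes with a positive difference (2.14% of all genes) and for 3 with a negative one (3.41%, against 2.95% of all genes). These were Cox6a2 (-0.26, SE 0.10), Cox8b (-0.30, SE 0.12) and Ndufaf3 (-0.16, SE 0.08), with adjusted p of 0.897 each. Uqcr10, a small subunit of complex III, was next at -0.20 (SE 0.11), and the largest positive difference was that of Atp5l at 0.17 (SE 0.09). In the authors' deposited tables, too, 0 of the 88 genes had an adjusted p under 0.05, the smallest being 0.897 for Cox8b in OFT-RV and 0.981 for Atp5f1 in aSHF.

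Genes of the same metabolism outside the 88 were counted by list. In OFT-RV none passed among complex II (4 genes), 32 other assembly factors, 12 genes of cytochrome c and ubiquinone, 20 of the citrate cycle and pyruvate dehydrogenase, 16 of fatty acid oxidation, 20 of glycolysis, 17 regulators of mitochondrial biogenesis and 12 of energy transfer, and none in aSHF. Their median changes in OFT-RV ran from -0.057 for fatty acid oxidation, with 13 of 16 genes below 0, to 0.0195 for the regulators. By limma without adjustment, p was under 0.05 in OFT-RV for 1 higher gene each in glycolysis and among the regulators and 1 lower, Coq4 of ubiquinone synthesis. In aSHF it was so for 1 higher gene of energy transfer and 1 lower among the other assembly factors. Over all genes the shares at that limit were 2.64% higher and 3.2% lower in OFT-RV, and 1.52% and 1.14% in aSHF. Of the 13 subunits encoded in mitochondrial DNA only mt-Atp6 and mt-Co2 had a value, with changes of -0.06 and -0.03 in OFT-RV, neither past the test. The cardiomyocyte markers had a median change of -0.0084 in OFT-RV and -0.0475 in aSHF, with 0 of 18 genes called in either and 1 lower at an unadjusted p under 0.05 in OFT-RV by limma, Pln (-0.26). Of the 10 primitive erythroid markers 9 had a change above 0 in OFT-RV (median 0.0744) and 10 in aSHF (median 0.123), with 0 called, and their part in the values above was not tested.

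Levels were high. The median rank of the 88 genes was 97.2% in OFT-RV mutants, 97.1% in OFT-RV wild-type pools, 89.4% in aSHF mutants and 89.0% in aSHF wild-type pools. Over single arrays the median lay between 97.09% and 97.24% in OFT-RV mutants, 97.12% and 97.32% in OFT-RV wild-type pools, 89.03% and 90.01% in aSHF mutants, and 88.81% and 89.56% in aSHF wild-type pools, so the tissues did not overlap and the genotypes did. Among the top 10% of genes were 69 of the 88 in OFT-RV of both genotypes, 43 in aSHF mutants and 42 in aSHF wild-type pools. Cox7b2, a form of subunit 7b known from testis, ranked lowest in every group, at 12.4% in OFT-RV mutants, 13.2% in OFT-RV wild-type pools, 12.2% in aSHF mutants and 13.05% in aSHF wild-type pools.

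On a common log2 scale made from the ranks, 83 of the 88 genes differed between OFT-RV and aSHF of wild-type embryos by limma, 69 of them higher in OFT-RV (78.4%, against 37.7% of all genes) and 14 lower (15.9%, against 40.1% of all genes). With each array's median subtracted in place of the common scale, 77 were higher and 7 lower, and 7 of the 14 lower genes turned to a positive difference. That scale moved the median of all genes to 0.23 and that of the 88 genes to 1.60. It sets intensities normalized apart by tissue against each other, and is not a check equal to the ranks. Subtracting medians of 6.48 to 6.55 in OFT-RV and 7.85 to 7.90 in aSHF wild-type arrays adds the same amount to every gene's difference. That 77.8% of all genes passed on the common scale means that a call alone says little about a gene here. The median difference of the 88 genes, OFT-RV minus aSHF, was 1.004, against -0.013 over all genes, and 44 of them were higher and 4 lower by at least 1, against 1701 and 1689 of all 20842 genes. Mutant pools, which are other arrays, gave 81 calls where 78.3% of all genes passed, with 67 higher (76.1%, against 37.6% of all genes) and 14 lower (15.9%, against 40.8% of all genes), and 67 and 14 genes were called in the same direction in both genotypes. With tissue go the arrays' separate normalization and the mix of cells, and these cannot be told apart. In pooled tissue, fewer cells of a type and less RNA per cell cannot be told apart either.

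Other gene groups give the width of the tissue difference, where 37.7% of all genes were higher and 40.1% lower. Of 82 cytosolic ribosomal protein genes, a yardstick chosen after values were seen, 51 were higher and 24 lower in OFT-RV wild-type pools, with a median of 0.41 and a range of -2.22 (Rpl39) to 4.39 (Rpl22l1). Of 18 cardiomyocyte markers 18 were higher in OFT-RV, by a median of 4.15. Of 9 markers of pharyngeal endoderm and epithelium 7 were lower, with a median of -2.65, and so were 8 of 8 markers of neural crest (median -0.99) and 6 of 6 of neural tissue (median -1.21). Of the 9 endothelial markers 7 were higher and 2 lower, and of the 10 primitive erythroid markers 7 were higher and 1 lower. Their part in the difference of the oxidative phosphorylation genes was not tested.

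**Figure D2:**
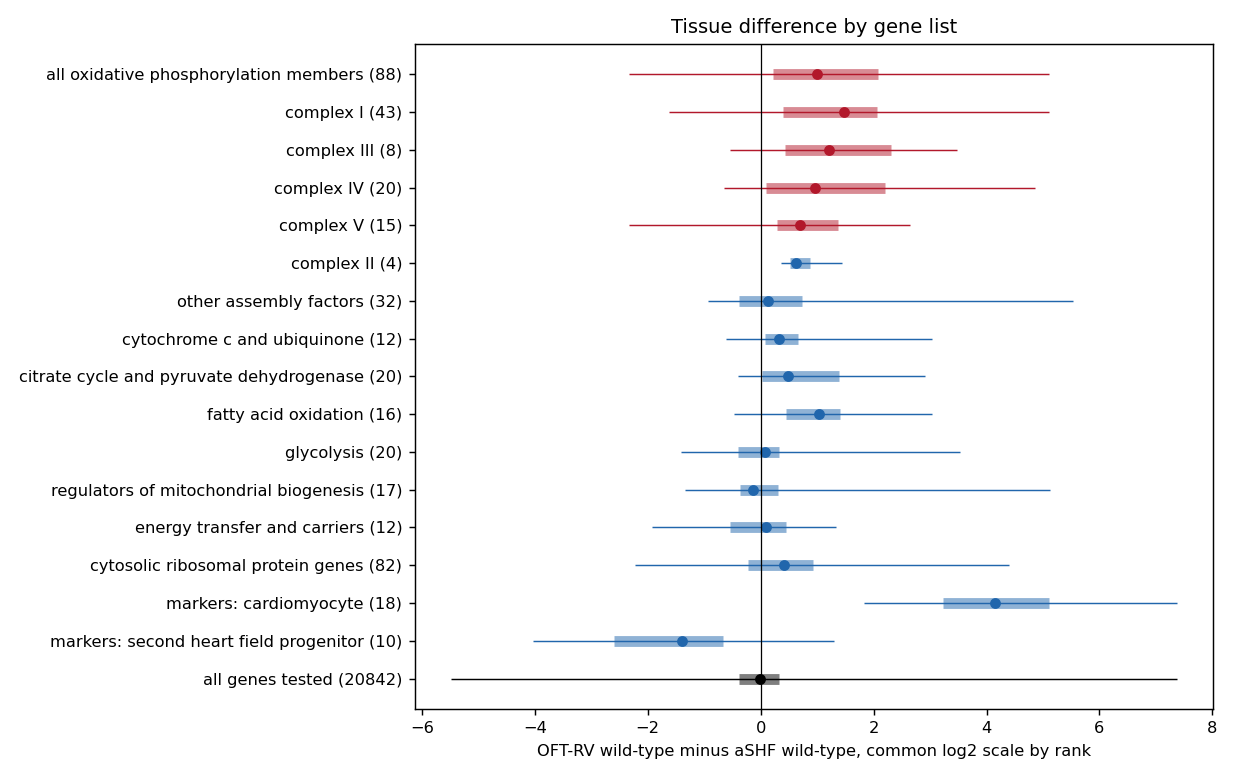
Difference between OFT-RV and aSHF wild-type pools on the common log2 scale, by gene list, with the number of genes in parentheses. Points are medians, thick bars run between the quartiles and thin lines span the lowest and highest gene, with the 88 genes and their complexes in red, other lists in blue and all genes in black. The median is 1.004 for the 88 genes, 0.41 for ribosomal protein genes and -0.013 for all genes.

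Of the 43 genes of complex I, 35 were higher and 6 lower in OFT-RV than in aSHF wild-type pools, with a median difference of 1.47. The shares over all genes were 37.7% higher and 40.1% lower. Ndufa1, a small membrane subunit, had the largest difference of the 88 genes, 5.11 (SE 0.06). It ranked at 98.9%, 98.8%, 98.9% and 98.9% in the OFT-RV mutant arrays, 99.0%, 98.9%, 98.9% and 99.0% in the OFT-RV wild-type arrays, 51.8%, 49.0%, 51.1% and 48.9% in the aSHF mutant arrays and 51.6%, 48.4%, 52.7% and 51.0% in the aSHF wild-type arrays. All 8 OFT-RV arrays thus placed it near the top of the array and all 8 aSHF arrays near its middle. The accessory subunits Ndufa5 (4.45, SE 0.05), Ndufs5 (4.21, SE 0.09), Ndufb10 (3.70, SE 0.07) and Ndufb2 (3.67, SE 0.07) had the same form, with mean ranks of 96.4% to 98.2% in OFT-RV wild-type pools and of 53.9% to 58.2% in aSHF wild-type pools.

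Within complex I, 5 of 7 core genes were higher and 2 lower, where 37.7% of all genes were higher and 40.1% lower. Of the 29 accessory genes 25 were higher and 3 lower, and of the 7 assembly factors 5 were higher and 1 lower, with no test made between these classes. Ndufv1, which binds NADH, was higher by 1.32 (SE 0.04), Ndufs3 by 1.24 (SE 0.04), Ndufs1 by 0.97 (SE 0.05) and Ndufv2 by 0.40 (SE 0.04). Ndufs7, the subunit with the last iron-sulfur cluster before ubiquinone, went the other way, at -1.62 (SE 0.06). Its mean rank was 94.8% ± 0.6 in OFT-RV wild-type pools and 99.1% ± 0.1 in aSHF wild-type pools (SD, n = 4 each). Ndufs8 was lower by 0.21 in OFT-RV (difference -0.21, SE 0.05), a direction that turned when array medians were subtracted instead.

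Among the assembly factors Ndufaf6 (2.33, SE 0.07), Ndufaf7 (2.23, SE 0.05), Ndufaf5 (1.88, SE 0.05), Ndufaf2 (1.82, SE 0.06) and Ndufaf4 (1.61, SE 0.06) were higher in OFT-RV wild-type pools. Ndufaf3 was lower (-1.18, SE 0.06), with mean ranks of 62.6% in OFT-RV and 80.0% in aSHF wild-type pools. Ndufaf1 did not pass, at -0.07 (95% interval -0.19 to 0.05, adjusted p = 0.29), a sign that turned with array medians subtracted.

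In complex III, 6 of 8 genes were higher in OFT-RV and 2 lower, with a median of 1.21. Of all genes, 37.7% were higher and 40.1% lower. Uqcrfs1 had the largest difference, 3.47 (SE 0.04). It ranked at 98.2%, 98.3%, 98.2% and 98.3% in the OFT-RV mutant arrays, 98.1%, 98.3%, 98.4% and 98.3% in the OFT-RV wild-type arrays, 68.5%, 68.9%, 70.2% and 68.4% in the aSHF mutant arrays and 69.5%, 69.1%, 68.6% and 69.6% in the aSHF wild-type arrays. The tissues were far apart for this gene and the genotypes overlapped in each. Uqcr10 was higher by 2.84 (SE 0.08), while Uqcrb (-0.55, SE 0.04) and the core protein gene Uqcrc2 (-0.22, SE 0.04) were lower, both with the opposite sign when array medians were subtracted.

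**Figure D3:**
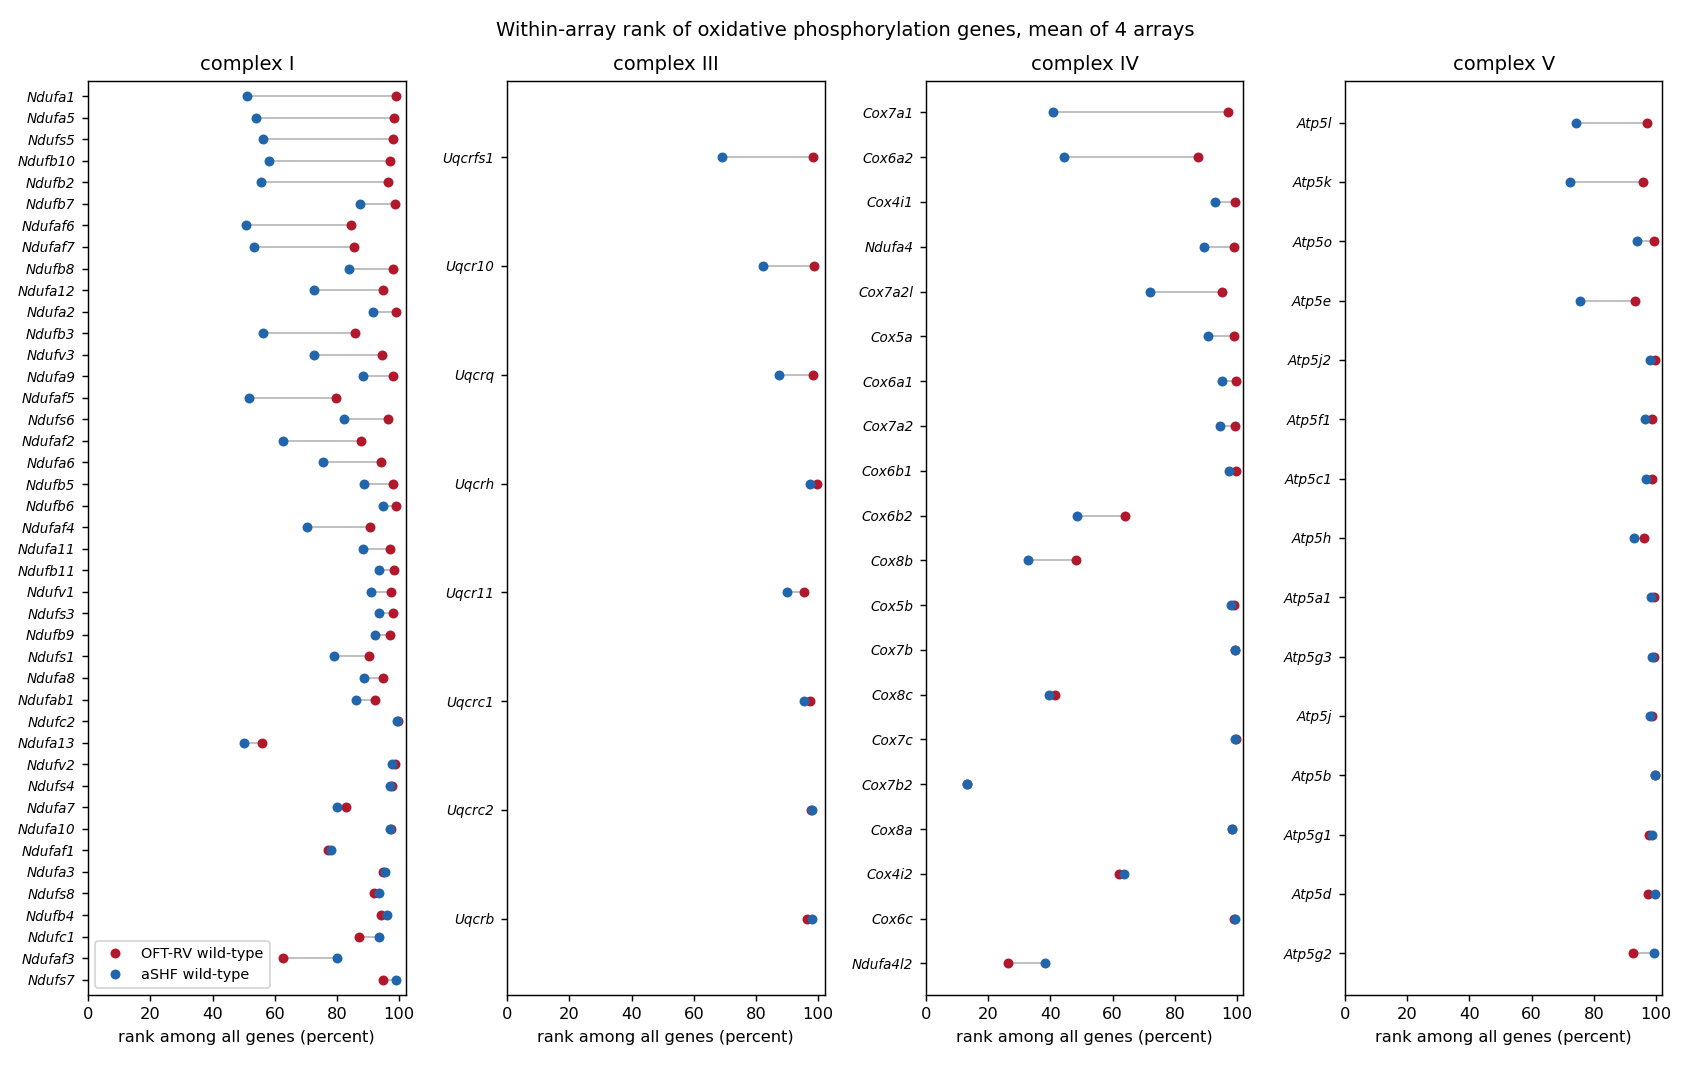
Mean rank among all genes (percent, 4 arrays) of genes of complexes I, III, IV and V (1 gene of complex I is not shown) in wild-type pools of OFT-RV (red) and aSHF (blue), with genes ordered from the largest OFT-RV minus aSHF difference on the common log2 scale at the top to the smallest at the bottom. Ndufa1 stands at 98.9% in OFT-RV and 50.9% in aSHF, Cox7a1 at 97.1% and 40.8%, and Atp5g2, at the bottom, at 92.6% and 99.4%.

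In complex IV, 15 of 20 genes were higher in OFT-RV wild-type pools and 2 lower, with a median difference of 0.97. The shares over all genes were 37.7% higher and 40.1% lower. Cox7a1 ranked at 97.3%, 96.8%, 97.0% and 97.0% in the OFT-RV mutant arrays, 96.7%, 97.4%, 97.1% and 97.3% in the OFT-RV wild-type arrays, 39.0%, 40.8%, 40.2% and 42.6% in the aSHF mutant arrays and 40.7%, 40.4%, 43.5% and 38.5% in the aSHF wild-type arrays. The gene was thus bright in every OFT-RV array and in the lower part of every aSHF array, a difference of 4.86 (SE 0.06). Its partner Cox7a2, made in most tissues, ranked at 99.4% in OFT-RV wild-type pools and 94.6% in aSHF wild-type pools, a difference of 1.99 (SE 0.03); the pair was not tested against each other.

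Cox6a2 differed by 2.99 (SE 0.065), with ranks of 85.9%, 88.7%, 87.2% and 87.4% in the OFT-RV wild-type arrays and 44.6%, 44.4%, 44.2% and 44.7% in the aSHF wild-type arrays, and its widely expressed partner Cox6a1 by 2.12 (SE 0.05). Cox8b differed by 0.92 (SE 0.07), with mean ranks of 48.1% in OFT-RV and 32.9% in aSHF wild-type pools, while Cox8a did not pass (-0.06, 95% interval -0.16 to 0.04, adjusted p = 0.23). Cox4i1, the common form of subunit 4, was higher by 2.37 (SE 0.05), and Cox4i2 did not pass at -0.10 (95% interval -0.23 to 0.03, adjusted p = 0.131). The sign of Cox8a turned with array medians subtracted, and that of Cox4i2 did so in mutants.

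Of the forms known from testis, Cox6b2 was higher by 1.02 (SE 0.07) where its common partner Cox6b1 was higher by 1.5 (SE 0.05), and Cox7b2 did not pass (0.0082, adjusted p = 0.893) where Cox7b was higher by 0.21 (SE 0.04). Cox8c passed at 0.13 (SE 0.05, adjusted p = 0.0302), a call that was lost without aSHF wild-type array 1 (0.13), aSHF wild-type array 3 (0.12) or OFT-RV wild-type array 2 (0.079). It ranked at 40.1% to 43.9% in the OFT-RV wild-type arrays and at 39.0% to 39.7% in the aSHF wild-type arrays. Ndufa4, now counted as a subunit of complex IV, was higher by 2.30 (SE 0.04), and its relative Ndufa4l2, known as a hypoxia-induced gene, was lower by a difference of -0.65 (SE 0.05). Cox6c was lower (-0.43, SE 0.04), a sign that turned with array medians subtracted.

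**Figure D4:**
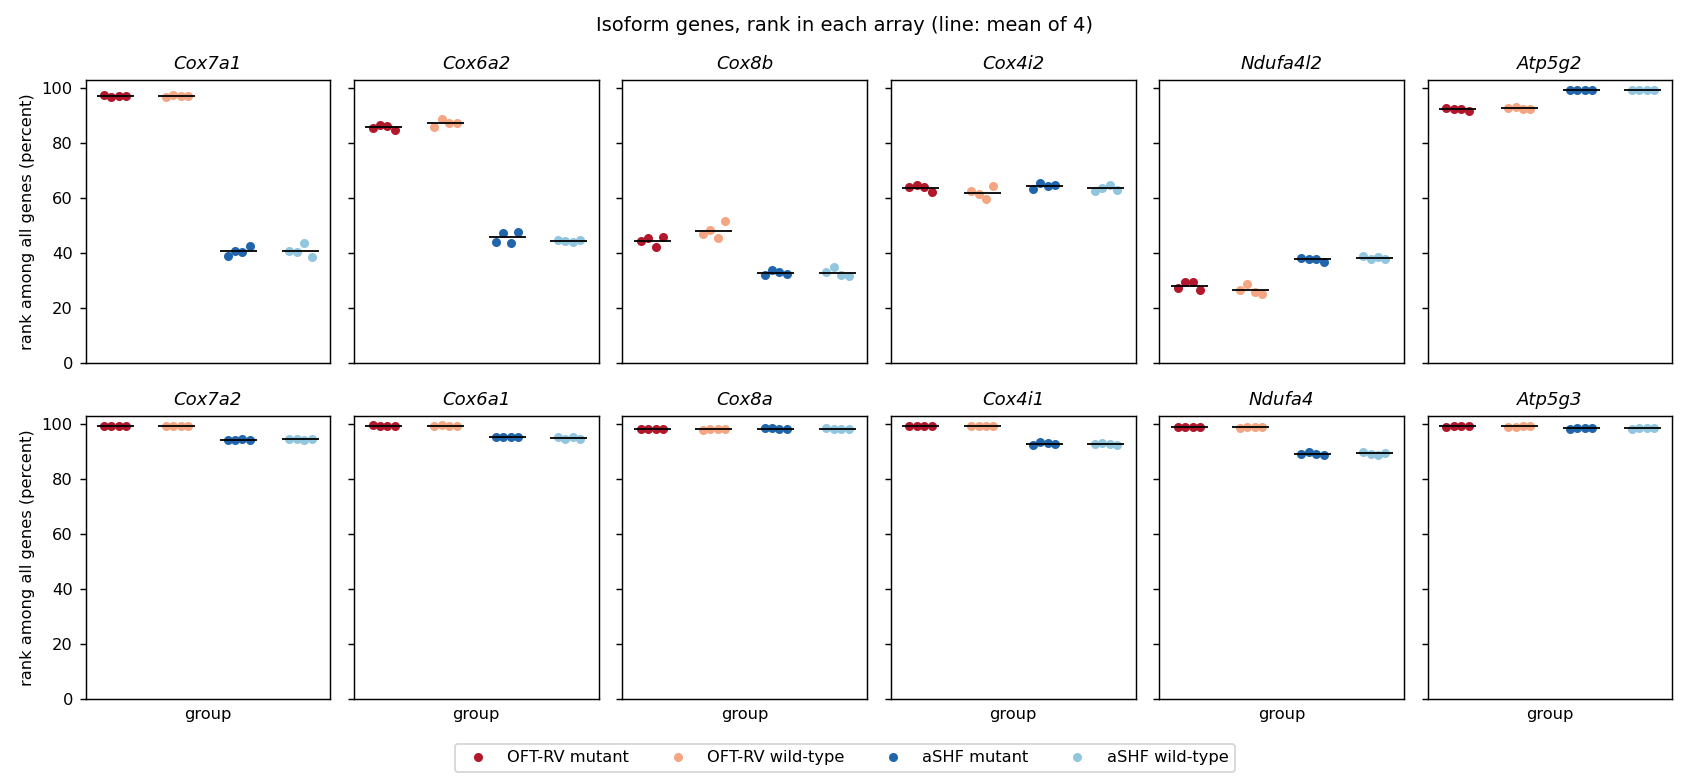
Rank among all genes (percent) in each of the 16 arrays for 6 pairs of related genes, with the form of narrower expression or the lower c-ring gene in the upper row and its relative in the lower row. Points are arrays in the order OFT-RV mutant, OFT-RV wild-type, aSHF mutant and aSHF wild-type, and lines are means of 4 arrays. Cox7a1 and Cox6a2 have means of 97.1% and 87.3% in OFT-RV wild-type pools, against 40.8% and 44.5% in aSHF wild-type pools.

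In complex V, 12 of 15 genes were higher in OFT-RV wild-type pools and 3 lower, with a median of 0.69. Of all genes, 37.7% were higher and 40.1% lower. The membrane subunits Atp5l (2.65, SE 0.05) and Atp5k (2.40, SE 0.05) differed most, and the catalytic subunits were higher by 0.26 (SE 0.04) for Atp5b and 0.65 (SE 0.04) for Atp5a1. The c ring, whose rotation drives the enzyme, is encoded by 3 genes for the same mature protein. Atp5g2 was lower by a difference of -2.34 (SE 0.04) and Atp5g1 by -0.51 (SE 0.05), while Atp5g3 was higher by 0.53 (SE 0.05), and the sign of Atp5g1 turned with array medians subtracted. Atp5g2 ranked at 92.6%, 92.5%, 92.2% and 91.8% in the OFT-RV mutant arrays, 92.6%, 93.2%, 92.3% and 92.5% in the OFT-RV wild-type arrays, and between 99.3% and 99.4% in all 8 aSHF arrays. Atp5d, the delta subunit of the central stalk, was also lower in OFT-RV, at -1.55 (SE 0.04).

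Promoters of the genes with contrasting tissue differences were read from the RefSeq table (GRCm38.p6), which held 70 of the 88 genes. The 250 bases before the annotated start are given 5′ to 3′ on the gene's own strand. Capitals mark letters that match the motif of NRF1 (GCGCATGCG), ETS factors such as GABP (CCGGAAG) or estrogen-related receptors (AAGGTCA), which are known to act on genes of oxidative phosphorylation. Cox7a1 (chr7:30183921-30184170, plus strand) and Cox7a2 (chr9:79759854-79760103, minus strand) are shown as the isoform pair, Atp5l (chr9:44920743-44920992, minus strand) and Cox6a1 (chr5:115348959-115349208, minus strand) as genes higher in OFT-RV with more than 1 kind of match, and Atp5g2 (chr15:102671048-102671297, minus strand) as the gene with the lowest difference.
Cox7a1: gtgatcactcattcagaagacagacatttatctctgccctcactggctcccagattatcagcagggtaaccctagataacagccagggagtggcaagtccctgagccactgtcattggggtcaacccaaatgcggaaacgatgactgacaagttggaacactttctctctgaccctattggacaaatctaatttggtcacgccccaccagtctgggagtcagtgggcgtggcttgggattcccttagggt
Cox7a2: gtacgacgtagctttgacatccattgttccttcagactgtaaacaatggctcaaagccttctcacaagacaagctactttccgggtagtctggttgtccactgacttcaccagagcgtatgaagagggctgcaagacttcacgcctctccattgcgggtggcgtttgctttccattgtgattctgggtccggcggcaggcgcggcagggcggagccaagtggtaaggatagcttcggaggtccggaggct
Atp5l: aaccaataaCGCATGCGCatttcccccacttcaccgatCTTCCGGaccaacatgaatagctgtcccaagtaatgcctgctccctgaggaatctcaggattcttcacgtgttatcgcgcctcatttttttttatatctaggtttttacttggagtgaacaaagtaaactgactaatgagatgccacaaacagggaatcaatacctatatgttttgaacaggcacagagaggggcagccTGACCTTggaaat
Cox6a1: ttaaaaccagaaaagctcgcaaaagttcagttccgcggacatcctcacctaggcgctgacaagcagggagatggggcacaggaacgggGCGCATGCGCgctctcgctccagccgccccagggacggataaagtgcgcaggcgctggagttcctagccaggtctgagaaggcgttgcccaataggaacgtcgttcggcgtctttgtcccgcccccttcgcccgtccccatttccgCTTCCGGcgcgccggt
Atp5g2: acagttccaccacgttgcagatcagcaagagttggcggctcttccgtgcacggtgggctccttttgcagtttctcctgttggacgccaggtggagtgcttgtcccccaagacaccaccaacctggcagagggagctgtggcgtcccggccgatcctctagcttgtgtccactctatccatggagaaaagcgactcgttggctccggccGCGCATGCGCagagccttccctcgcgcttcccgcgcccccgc
Neither promoter of the Cox7a pair held any of the letters searched in this window.

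Both strands were searched. The NRF1 letters were in the window of 7 of 70 genes (10%), against 1.64% of the 27025 genes of the table, the ETS letters in 12 (17.1%, against 7.83%), the estrogen-related receptor letters in 5 (7.14%, against 4.70%), and the letters of YY1 (AAGATGGC) in 1 (1.43%, against 1.83%). The 27025 genes were all symbols of the table, where 19853 protein-coding genes were tested on the arrays. They were not matched to the 70 genes for expression or base content, and the shares were not tested. A match is a description of the letters and not a site. The NRF1 letters were found in 6 of 57 genes higher in OFT-RV wild-type pools and in 1 of 9 lower, the ETS letters in 11 of 57 and 0 of 9, and the estrogen-related receptor letters in 4 of 57 and 1 of 9. The ETS and NRF1 letters do not overlap within Atp5l or Cox6a1, while in Cox6a1 and Atp5g2 the NRF1 letters are matched on both strands by overlapping stretches.

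Of the 16 genes of fatty acid oxidation 14 were higher and 2 lower in OFT-RV wild-type pools (median 1.03), among them Etfa (3.03, SE 0.05), which passes electrons from that pathway to ubiquinone, and Cpt1b (2.94, SE 0.09), the muscle form of the enzyme that admits fatty acids to mitochondria. All 4 genes of complex II were higher (median 0.63, Sdhb highest at 1.44). The mitochondrially encoded mt-Atp6 (-0.79, SE 0.07) and mt-Co2 (-0.17, SE 0.07) were lower in OFT-RV wild-type pools, and in mutants too (-0.81 and -0.16). Their mean ranks were 98.9% and 99.3% in OFT-RV wild-type pools, and 99.6% and 99.5% in aSHF wild-type pools. Of 20 genes of the citrate cycle and pyruvate dehydrogenase 13 were higher and 3 lower (median 0.49). Of 20 genes of glycolysis 10 were higher and 8 lower (median 0.071). Over all genes 37.7% were higher and 40.1% lower, and no list here was tested against these shares. Among 17 regulators of mitochondrial biogenesis 6 were higher and 7 lower (median -0.13). Ppargc1a, a coactivator of mitochondrial genes, was higher by 5.12 (SE 0.11), with mean ranks of 89.3% in OFT-RV and 9.78% in aSHF wild-type pools. Esrrg was higher by 2.18 (SE 0.05). Gabpb1 went the other way (-0.99, SE 0.04), with mean ranks of 71.6% in OFT-RV and 85.3% in aSHF wild-type pools. Cox17, a copper carrier for complex IV, differed by 5.53 (SE 0.11) among 32 other assembly factors, of which 16 were higher and 11 lower (median 0.12).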

How the data were processed

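The 16 pools, 4 per group, were each hybridised to an mRNA array. A further 14 miRNA arrays were not used here. The deposited values per array are log2 intensities, and the submitters' processing notes name RMA and oligo for what the authors did, without versions. Their distributions are alike within a tissue and differ between tissues. The authors' deposited tables also hold the log2 change, a linear fold change (ratio), p-values and test statistics (a score) per gene. Genes were tied to probe sets by matching these tables to the arrays within 1e-06, which placed 20889 genes. Leaving out 45 that shared a probe set and 2 second listings of a symbol left 20842 to test, and 30 value columns in 4 tables that match no sample label were not used.

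Genotypes were compared within each tissue on the deposited log2 values with limma 3.58.1 (lmFit and eBayes, R 4.3.3) and Benjamini-Hochberg adjustment over 20842 genes, and a gene was called at an adjusted p under 0.05. For tissues, the 16 arrays were quantile normalized to one common log2 scale, which keeps only each gene's rank within its array. The number of arrays, 4 per group, limits the precision. Intervals are at 95%. No 2 arrays of a group held the same values. Named genes are, per direction of a genotype comparison without calls, the 4 of smallest p, the 12 called with the largest tissue difference in each direction, core subunits (1 is not reported here), isoform sets, and up to 3 genes per list. Atp5a1 and other genes outside that rule, and the ribosomal list, were chosen after their values were seen. The members and lists were chosen with earlier results of these data known. Alternatives left out each array in turn, weighted arrays, left out dim probe sets, tested all probe sets and blocked on replicate number. Tissue comparisons also replaced the common scale by ranks, normal scores or values less each array's median. Genotype changes were also fitted on the common scale, and within each tissue with the spread shared over the 4 groups. The procedure was tested on simulated data. Promoter sequences are from the RefSeq table of GRCm38.p6, and the arrays' own build is not given in the sources used.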

Additional observations from a re-analysis of the deposited data

Results flagged for a closer look

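Among the genes described singly, 52 symbols and the mean of the 88 genes gave 212 groups of 4 arrays, and in 11 of them 1 array lay apart from the other arrays by a gap that, over the group's range, exceeded Dixon's 95% critical value. Chance flags about 1 in 20 groups. All values are log2 intensities.

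In OFT-RV mutants, replicate 2 was low for Cox8a (11.61, others 11.69 to 11.70) and replicate 3 was low for Ndufaf6 (9.03, others 9.07 to 9.08). In OFT-RV wild-type pools, replicate 1 was low for Cox8a (11.53, others 11.68 to 11.70) and for Cox4i1 (12.46, others 12.57 to 12.59). Replicate 2 was low for Atp5sl (8.76, others 8.90 to 8.92) and high for Cox8c (6.18, others 5.89 to 5.93), and replicate 4 was high for Cox6b2 (7.65, others 7.37 to 7.41).

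In aSHF mutants, replicate 4 was high for Atp5sl (9.43, others 9.25 to 9.27) and replicate 2 was low for Ndufb10 (8.24, others 8.41 to 8.43). In aSHF wild-type pools, replicate 4 was low for Atp5g1 (12.37, others 12.53 to 12.55) and for Ndufa13 (7.65, others 7.94 to 7.98).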

How the results depend on the processing

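In the genotype comparisons 0 of the 88 genes were called by limma under each of 14 alternatives in OFT-RV, 14 in aSHF and 21 for the difference between them, with smallest adjusted p over these of 0.140, 0.243 and 0.162. The tissue count lay between 76 and 84 in wild-type pools (79 to 83 with 1 array left out) and between 76 and 85 in mutants (79 to 82 with 1 array left out). The alternative that left out dim probe sets could test fewer than the 88 genes. With the replicate number as a block the counts were 0 in each genotype comparison, 83 in wild-type pools and 82 in mutants. Arrays with the same number correlated at 0.239, 0.047, 0.130 and 0.019 in OFT-RV and 0.375, 0.672, -0.076 and -0.091 in aSHF. Arrays of different number ran from -0.248 to 0.140 in OFT-RV and from -0.631 to 0.481 in aSHF. Between tissues the same numbers gave 0.349, 0.551, -0.181 and -0.008 in wild-type pools and 0.327, 0.112, 0.080 and 0.096 in mutants. The labels do not say whether a number marks shared pools or processing. The numbers were not taken to pair the arrays, and a shared effect was not tested further.

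With array medians subtracted in place of the common scale, 77 genes were higher and 7 lower in OFT-RV wild-type pools and 78 and 7 in mutants. Of the 88 differences 9 turned to positive in wild-type pools, namely Uqcrb 0.059, Atp5g1 0.20, Ndufb4 0.0025, Cox6c 0.36, Uqcrc2 0.47, Ndufs8 0.13, Ndufa3 0.30, Ndufaf1 0.031 and Cox8a 0.68. In mutants 11 did, Uqcrb 0.16, Atp5g1 0.16, Ndufb4 0.079, Cox6c 0.44, Uqcrc2 0.51, Ndufs8 0.16, Ndufa3 0.21, Ndufaf1 0.084, Ndufa10 0.67, Cox4i2 0.0021 and Cox8a 0.72. Cox7b2, not called, ranged between -0.036 and 0.045 in wild-type pools and between -0.011 and 0.033 in mutants with 1 array left out. The subtracted medians were 6.48 to 6.55 in the OFT-RV arrays and 7.85 to 7.92 in the aSHF arrays, whose intensities were normalized apart. The cause of these turns was not tested. The rank scale removes any shift of a whole array, and genes near the top of the array have little room to differ in rank.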
